A study of Mus musculus with 2 samples.

Results

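The 9 genes described here, Upk3a, Spink5, Wfdc3, Krtap17-1, Plb1, Pnliprp1, Homer2, Ly6g6c and Gpx2, are 9 of the 28692 genes of the deposited matrices. They were found by symbol and had been selected on their UMI levels, as lead genes of club-like cells of the NAPH library, so their higher level there is how they were chosen and not a finding. The cells came from lungs of adult C57BL/6 mice and were enriched by flow sorting for the epithelial surface protein Epcam, after which a droplet-based 3' kit captured their RNA. There was 1 library after an injury labelled NAPH and 1 library labelled Control. The labels do not spell out NAPH, an abbreviation often used for naphthalene, a compound that kills club cells. The sources used here do not give the dose, time after injury, age in weeks, sex or animal numbers. Because each group is 1 library, differences have no replicate check, no test between groups was made, and each value describes these libraries. Parentheses hold 95% intervals, exact Poisson for levels and ratios and exact binomial (Clopper-Pearson) for shares, which cover counting error only.

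Club cells are the secretory cells of the mouse airway, and they make secretoglobins such as Scgb1a1 together with the P450 enzyme Cyp2f2. That enzyme turns naphthalene into toxic products, which is why naphthalene removes most club cells. A small group known as variant club cells survives it, lies next to neuroendocrine cells or at the border of airway and alveolus, is low in Cyp2f2 and can rebuild the airway lining, and Upk3a is one of its known markers in the mouse. The genes of the set have varied roles. Upk3a codes for a uroplakin, a membrane protein of urothelial plaques. Spink5 and Wfdc3 code for secreted proteins with protease inhibitor domains of the Kazal and WAP type. Plb1 codes for a membrane phospholipase B and Pnliprp1 for a relative of pancreatic lipase. Krtap17-1 belongs to the keratin-associated proteins of hair, Homer2 is a scaffold protein of synapses and other cell contacts, Ly6g6c is a small protein of the Ly6 family and Gpx2 is a glutathione peroxidase and a known target of NRF2.

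The genes lie on 9 chromosomes and so share no neighbourhood. Promoters were matched by symbol for 8 of the 9 genes in a RefSeq table of build GRCm38.p6, and not for Spink5. The 250 bases before the start are printed for 3 genes that differ in their share of Control cells, since Upk3a and Pnliprp1 are rare there and Krtap17-1 is not. None of the 3 stretches overlaps an exon of GENCODE. Capitals mark a match to 1 of 4 motifs searched on both strands. The core of the antioxidant response element, which NRF2 binds, was searched as TGACNNNGC. The site of AP-1 was searched as TGANTCA. The site of forkhead factors was searched as TGTTTNC. The TATA box was searched as TATAAA.
Upk3a, chr15:85016891-85017140, plus strand: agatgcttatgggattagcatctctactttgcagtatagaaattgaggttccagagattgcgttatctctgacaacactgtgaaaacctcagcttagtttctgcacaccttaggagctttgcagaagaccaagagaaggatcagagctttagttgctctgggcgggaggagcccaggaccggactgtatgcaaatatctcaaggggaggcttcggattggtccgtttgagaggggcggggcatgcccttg
Pnliprp1, chr19:58728637-58728886, plus strand: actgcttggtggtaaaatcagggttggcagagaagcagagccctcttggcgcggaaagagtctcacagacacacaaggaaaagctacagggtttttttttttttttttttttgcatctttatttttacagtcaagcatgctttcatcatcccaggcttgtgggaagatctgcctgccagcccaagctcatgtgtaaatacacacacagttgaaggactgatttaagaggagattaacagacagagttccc
Krtap17-1, chr11:99993995-99994244, minus strand: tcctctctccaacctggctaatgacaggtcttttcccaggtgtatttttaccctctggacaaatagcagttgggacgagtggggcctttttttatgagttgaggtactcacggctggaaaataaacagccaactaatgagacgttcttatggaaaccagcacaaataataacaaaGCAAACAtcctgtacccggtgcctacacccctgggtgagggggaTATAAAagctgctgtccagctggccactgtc
The Krtap17-1 promoter held TATAAA 31 bases before the start and TGTTTNC, read on the strand opposite to the printed one, 75 bases before it. None of the 4 motifs was found in these 250 bases of Upk3a or Pnliprp1. Of the other matched genes, Ly6g6c held TATAAA 30 bases before its start. One of the 2 promoters of Plb1 held TGANTCA and one of the 2 of Homer2 held TGTTTNC and TATAAA, while Wfdc3 and Gpx2 held none of the 4. The stretches of Ly6g6c, Wfdc3, Plb1 and Homer2 start from RefSeq starts that lie inside the GENCODE span of the gene. Those of Wfdc3, of 1 Plb1 promoter and of 1 Homer2 promoter overlap an exon. No promoter of the set held TGACNNNGC, that of the NRF2 target Gpx2 included. Among 32851 promoters of the same length 10.2% held TGACNNNGC, 6.75% TGANTCA, 17.8% TGTTTNC and 12.4% TATAAA. These matches describe letters in a window and name no factor that acts there.

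The NAPH library held 3685 barcodes with a median of 9417 unique molecular identifiers (UMIs, counted RNA molecules), and 3572 cells were kept. The Control library held 3298 barcodes with a median of 8303.5 UMIs, and 3211 cells were kept. Both libraries shared 14 barcodes. Cells were gated by UMIs per 10000, and a cell could pass several gates. The secretory gate (Scgb1a1 at least 1000) held 197 NAPH cells and 757 Control cells, with medians of 22537 and 29252 UMIs. The goblet-like gate (Scgb3a1 and Bpifb1 together at least 150) held 75 NAPH and 139 Control cells, of which 67 NAPH and 139 Control cells were also secretory. The AT2 gate (Sftpc at least 500) held 2515 NAPH and 1800 Control cells and the ciliated gate (Foxj1, Ccdc153 and Tmem212 together at least 10) 204 NAPH and 193 Control cells. A gate for leukocytes, added because the sort still held them, took 496 NAPH and 449 Control cells. No gate took 176 NAPH and 27 Control cells. Scgb1a1 made up 35.03% of secretory UMIs in the NAPH library and 59.61% in the Control library, and the median gene of this gate was 0.61 higher in NAPH on the log2 scale. Ratios below are therefore given relative to the median of all genes in the gate, which lowers each secretory ratio by that amount. In secretory cells the summed level of 10 AT2 markers was 31445 UMIs per 1000000 (CPM) in NAPH and 10878.5 in Control. That of 10 leukocyte markers was 3269 and 693 CPM, but the 10 did not move together. Relative to the median gene, Cd74 and Lyz2, the latter also among the AT2 markers, were at least 2 times higher in NAPH. Ptprc and Laptm5 were at least 2 times lower, and 6 lay between. Of all tested genes 7.25% were higher and 6.43% lower. None of these marker genes was at 0 UMIs in either library. Their part in the results was not tested.

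Upk3a and Spink5 had the highest ratios of the 9 genes in secretory cells. It had 1301 UMIs in 93 of 197 NAPH secretory cells and 115 UMIs in 44 of 757 Control secretory cells, which is 47.2% (40.1 to 54.4) of NAPH cells and 5.81% (4.25 to 7.72) of Control cells. Its level was 290 CPM (274 to 306) in NAPH and 5.52 CPM (4.56 to 6.63) in Control, 34.3 times higher in NAPH relative to the median gene (28.3 to 41.9). The cells differed in how much they held as well as in number. Among the NAPH cells with Upk3a, 55 had 5 or more UMIs, 20 had 20 or more and the highest had 133, while among the Control cells 28 had a single UMI, 7 had 5 or more and the highest had 16. Leukocytes should lack Upk3a, and there 9 of 496 NAPH cells (1.81%, median depth 7932.5 UMIs) held 1 UMI each, against 0 of 449 Control leukocytes (median 7930 UMIs), for which 3 counts of the total allow up to 0.668% of cells with a UMI. With every cell thinned to 3000 UMIs, 26.4% of NAPH and 1.32% of Control secretory cells still held a Upk3a UMI.

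Both protease inhibitor genes were also higher in NAPH. Spink5 had 557 UMIs in 81 NAPH secretory cells and 40 UMIs in 16 Control secretory cells (41.1% and 2.11% of cells), 42.2 times higher in NAPH relative to the median gene (30.6 to 59.8). Of the 40 Control UMIs, 21 lay in 7 goblet-like cells, and without goblet-like cells the Spink5 ratio was 106. Wfdc3 had 374 UMIs in 82 NAPH cells and 161 UMIs in 85 Control cells (41.6% and 11.2%), 7.05 times higher in NAPH (5.84 to 8.53). The lipase relative Pnliprp1 and the phospholipase gene Plb1 were higher in NAPH as well. Pnliprp1 had 98 UMIs in 31 NAPH cells and 46 in 37 Control cells (15.7% and 4.89%), 6.46 times higher in NAPH (4.51 to 9.38). Plb1 had 238 UMIs in 103 NAPH cells and 278 in 211 Control cells (52.3% and 27.9%), 2.60 times higher in NAPH (2.17 to 3.10).

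The scaffold and keratin-associated genes were common in both libraries. Homer2 had 205 UMIs in 94 NAPH cells and 221 in 168 Control cells (47.7% and 22.2%), 2.81 times higher in NAPH (2.32 to 3.42). Krtap17-1 had 347 UMIs in 77 NAPH cells and 485 in 193 Control cells (39.1% and 25.5%), 2.17 times higher in NAPH (1.89 to 2.50). The last 2 genes did not reach a ratio of 2. Gpx2 had 927 UMIs in 164 NAPH cells and 2497 in 667 Control cells (83.2% and 88.1%), a relative ratio of 1.13 (1.04 to 1.21). Ly6g6c had 78 UMIs in 38 NAPH cells and 259 in 166 Control cells (19.3% and 21.9%), a relative ratio of 0.914 (0.700 to 1.18), and on plain CPM it was 1.40. So 7 of the 9 genes were at least 2 times higher in NAPH, where 7.25% of 12034 tested genes were (21.5% on plain CPM), and nothing is read from that count because NAPH club-like cells chose the genes.

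**Figure D1:**
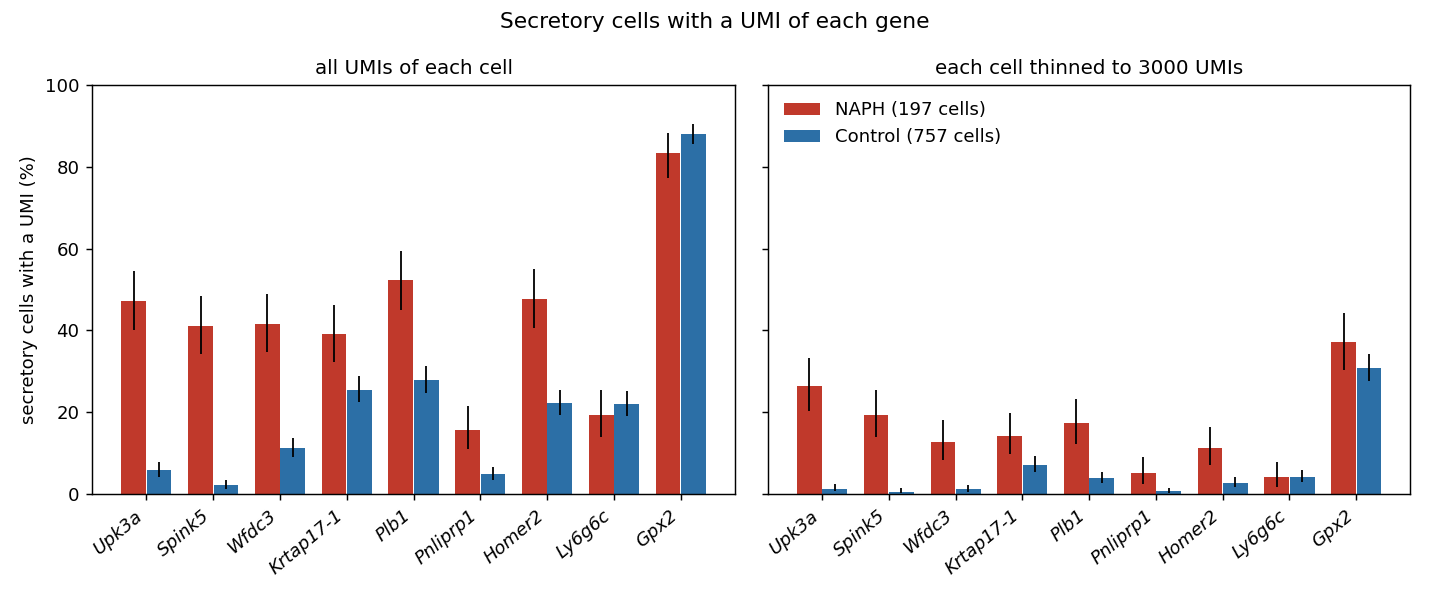
Share of secretory cells with at least 1 UMI of each gene, in percent, for NAPH (197 cells) and Control (757 cells), from all UMIs on the left and after thinning each cell to 3000 UMIs on the right. Bars are shares and lines exact 95% binomial intervals. Upk3a and Spink5 are in 47.2% and 41.1% of NAPH cells and 5.81% and 2.11% of Control cells, while Gpx2 and Ly6g6c have overlapping intervals in both panels.

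Secretory cells held more than 50% of the UMIs of 5 of the 9 genes in NAPH and of 8 in Control, where Spink5 was the exception. Over all genes, secretory cells held 4492984 UMIs in NAPH, where all barcodes held 38497783. In Control they held 20831601, where all barcodes held 41699755. The gate was thus a much larger part of the Control library, and nothing is read from 5 against 8. AT2 cells held 24959982 UMIs of all genes in NAPH and 14263571 in Control. AT2 cells held 38.4% of the 1088 Spink5 UMIs in NAPH and 87.8% of the 361 in Control. It was present in 261 of 2515 NAPH AT2 cells and 225 of 1800 Control AT2 cells (10.4% and 12.5%), mostly as 1 UMI (205 and 166 cells), and its relative ratio there was 0.706 (0.609 to 0.820). In leukocytes Spink5 had 10 UMIs in NAPH and 3 in Control, and in ciliated cells 3 and 0, so it was not spread evenly over cell types. The Spink5 difference between libraries thus had opposite directions in secretory and AT2 cells.

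In CPM, Wfdc3 and Gpx2 were highest in ciliated cells in both libraries. For Gpx2 in Control the interval overlapped that of goblet-like cells. Scgb1a1 took 35.03% of NAPH and 59.61% of Control secretory UMIs, but 0.907% and 2.50% of ciliated UMIs. That lowers the CPM of other genes in secretory cells, so the order of gates is given for CPM only. Wfdc3 had a UMI in 49.0% of NAPH and 30.1% of Control ciliated cells, a relative ratio of 1.52 (1.17 to 1.99), and Gpx2 in 84.3% and 63.2%, a relative ratio of 1.40 (1.197 to 1.633). The Wfdc3 level in ciliated cells was 111 CPM in NAPH and 67.8 CPM in Control, above its own level in secretory cells, 83.2 and 7.73 CPM. Homer2 was in 8.67% of NAPH and 8.24% of Control leukocytes. Its Control level there (11.7 CPM) overlapped that in Control secretory cells (10.6 CPM). Scgb1a1 took 1.43% of Control leukocyte UMIs, so it lowers the secretory CPM far more, and the overlap is one of CPM only. In AT2 cells Homer2 was 2.998 times higher in NAPH (2.02 to 4.58), from 168 NAPH and 30 Control UMIs. Plb1 was 0.739 times as high in NAPH AT2 cells as in Control (0.561 to 0.977). On plain CPM that ratio was 0.789 (0.598 to 1.04), an interval that includes no difference. In ciliated cells Plb1 was 5.34 times as high (1.65 to 27.4), from 29 NAPH and 3 Control UMIs.

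Upk3a was mostly a gene of secretory cells. In NAPH 77.2% of its 1686 UMIs were in secretory cells and 19.2% in cells of no gate, and in Control 115 of its 116 UMIs were in secretory cells. In AT2 cells it was found in 36 NAPH cells, 33 of them with 1 UMI, and in 1 Control cell. In the goblet-like gate 32 of 75 NAPH cells held 241 Upk3a UMIs, and 30 of these 32 cells were also in the secretory gate. In Control 0 of 139 goblet-like cells held Upk3a, for which 3 counts allow up to 2.16% of cells with a UMI. The Upk3a level in goblet-like cells was at least 112 times higher in NAPH relative to the median gene, taking 3 counts over the gate as the Control floor. Wfdc3 showed the same contrast, with 46 UMIs in 19 NAPH goblet-like cells and 1 UMI in Control.

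**Figure D2:**
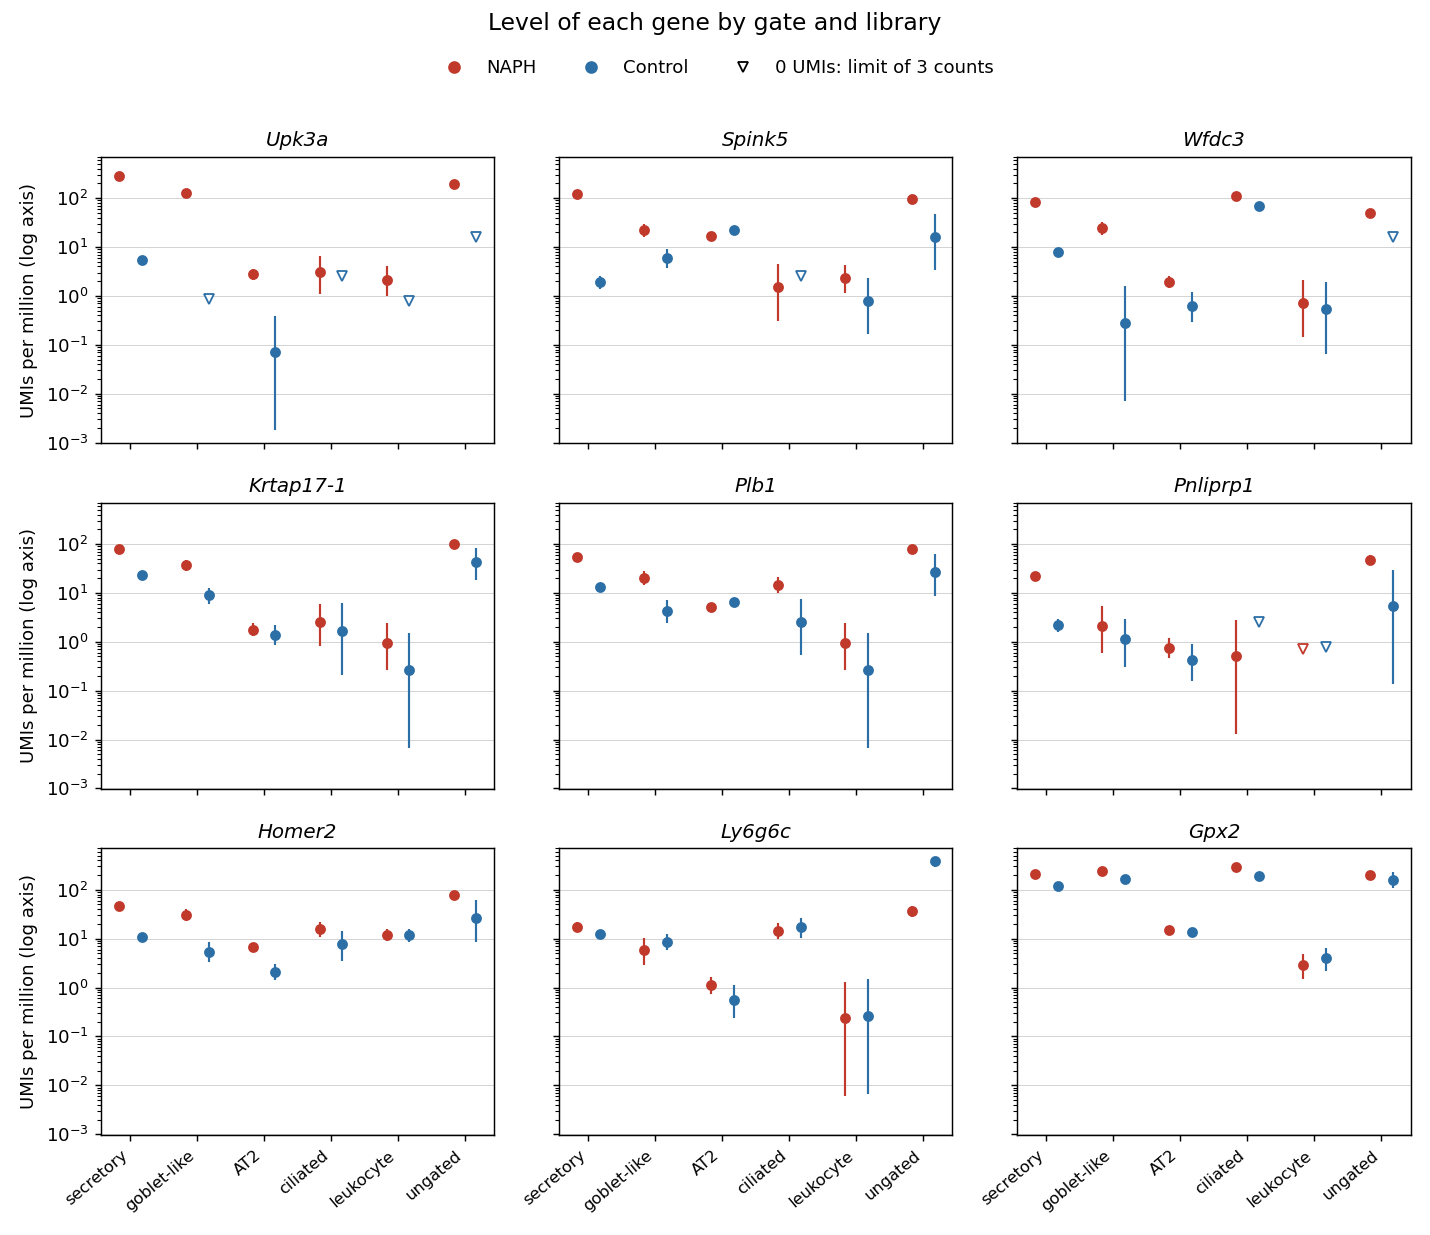
Summed level of each gene in CPM (log axis) in 6 gates, with NAPH left of Control. Points are levels, lines exact 95% Poisson intervals, and open triangles mark 0 UMIs at the limit that 3 counts give. Upk3a is high in NAPH secretory, goblet-like and ungated cells, and Spink5 is lower in NAPH than in Control in AT2 cells. Wfdc3 and Gpx2 have their highest CPM in ciliated cells, where Scgb1a1 takes a far smaller share of UMIs than in secretory cells.

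How many of the 9 genes a cell held follows in part from how they were chosen, since each gene that is more frequent in NAPH cells raises the count there, so the counts are a description. Of 197 NAPH secretory cells 138 held a UMI of 3 or more of the 9 genes, 70.1% (63.1 to 76.4), against 242 of 757 Control secretory cells, 31.97% (28.7 to 35.4). The median was 4 genes per NAPH cell and 2 per Control cell, although Control cells were deeper. After thinning to 3000 UMIs, 36 NAPH cells and 8 Control cells held 3 or more (18.3% and 1.06%). With 6 or more genes there were 49 NAPH cells and 5 Control cells, and the highest numbers were 8 genes in 6 NAPH cells and 6 genes in Control. The libraries differed in which genes made up the count. Among cells with 3 or more, Upk3a was in 61.6% of NAPH and 14.5% of Control cells, Spink5 in 52.9% and 4.96%, and Wfdc3 in 55.1% and 29.3%. Gpx2 was in 92.8% and 98.3%, and Ly6g6c in 25.4% and 44.2%. Of the 242 Control cells that passed the count, 238 held Gpx2, 132 Plb1, 121 Krtap17-1, 114 Homer2 and 107 Ly6g6c, each gene counted separately.

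**Figure D3:**
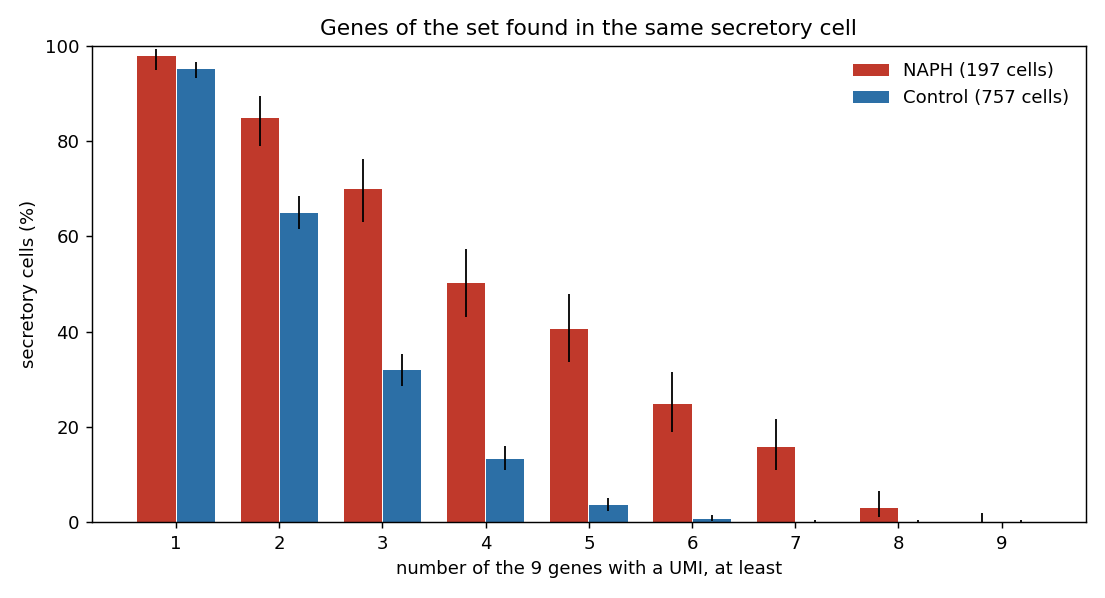
Share of secretory cells, in percent, that held a UMI of at least the given number of the 9 genes, for NAPH (197 cells) and Control (757 cells). Bars are shares and lines exact 95% binomial intervals. At 3 genes the shares are 70.1% and 31.97%, and with at least 7 genes there are 31 NAPH cells and no Control cell.

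By pairs, the genes overlapped in NAPH secretory cells. This too follows in part from their choice as lead genes of NAPH club-like cells, so the pairs are a description. Over the 36 pairs, the median share of cells with both genes among cells with either was 32.7% in NAPH and 7.11% in Control, a measure that also follows how common each gene is. The second gene was more frequent in cells with the first than in cells without it for 32 pairs in NAPH and 33 in Control, and the 2 intervals were apart for 13 pairs in NAPH and 3 in Control. Deeper cells hold more of every gene, and after thinning those numbers were 29 and 13 pairs, with intervals apart for 4 NAPH pairs and 0 Control pairs. The 4 pairs were Upk3a with Wfdc3, Upk3a with Homer2, Spink5 with Wfdc3 and Spink5 with Pnliprp1. Spink5 was in 53.8% (43.1 to 64.2) of the 93 NAPH cells with Upk3a and 29.8% (21.2 to 39.6) of the 104 without. After thinning these were 23.1% (12.5 to 36.8) and 17.9% (12.1 to 25.2), which overlap. Plb1 was in 67.7% of NAPH cells with Upk3a and 38.5% of those without, and after thinning in 26.9% and 13.8%, also with overlapping intervals. Wfdc3 was in 55.9% of NAPH cells with Upk3a and 28.8% of those without, and its intervals stayed apart after thinning, at 28.8% and 6.90%. Pnliprp1 went with Spink5, being in 29.6% of NAPH cells with Spink5 and 6.03% of those without.

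Some pairs stood apart from this pattern. Pnliprp1 was in 10.4% of NAPH cells with Krtap17-1 and 19.2% of those without, with overlapping intervals. Gpx2 was in 74.2% of the 31 NAPH cells with Pnliprp1 and 84.9% of those without. After thinning, 0 of 10 NAPH cells with Pnliprp1 held Gpx2, against 39.0% of the others, the only pair below with intervals apart. That rests on 10 cells and a single random thinning, and with all UMIs 0 of the 36 NAPH pairs were below with intervals apart. In Control no cell held both Spink5 and Pnliprp1.

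**Figure D4:**
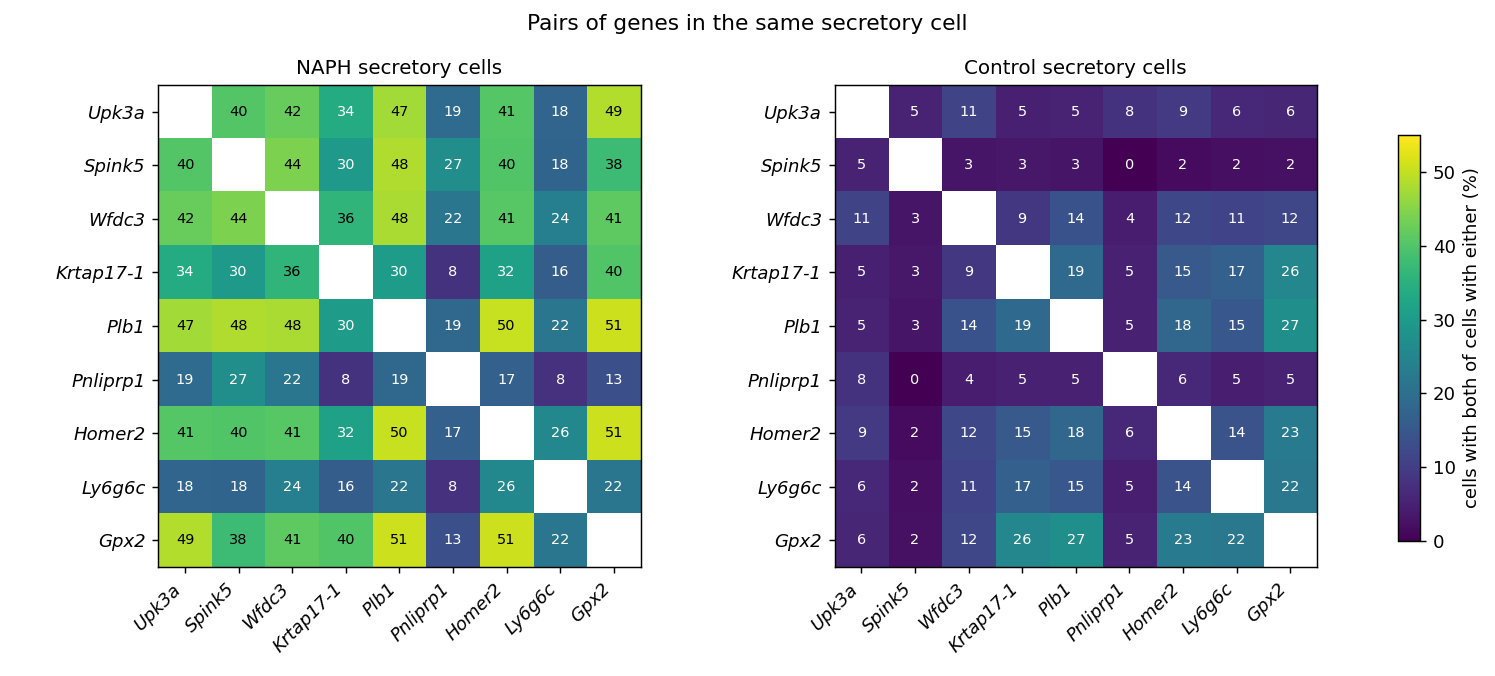
Cells with both genes of a pair as a percentage of cells with either, for NAPH (left) and Control (right) secretory cells. Rows and columns are the 9 genes and the shade and printed value give the share. Values run from 7.81% to 50.9% in NAPH and from 0% to 27.4% in Control, where the highest involve Gpx2.

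Control cells with Upk3a were rare. Of the 44 such secretory cells, 6.82% held Spink5, against 1.82% of the 713 without Upk3a, from 3 and 13 cells. Wfdc3 was in 29.5% of Control cells with Upk3a and 10.1% of those without, and Homer2 in 40.9% and 21.0%, and for both genes the intervals were apart. For Krtap17-1 (25.0% and 25.5%), Plb1 (29.5% and 27.8%), Ly6g6c (27.3% and 21.6%) and Gpx2 (90.9% and 87.9%) the intervals overlapped. Ly6g6c was in 21.5% of the NAPH cells with Upk3a and Gpx2 in 90.3%, no more often than in the Control cells with Upk3a. Of the 55 NAPH cells with 5 or more Upk3a UMIs, 32 held Spink5, 33 Wfdc3, 39 Plb1, 39 Homer2, 15 Pnliprp1 and 53 Gpx2. The 7 Control cells with 5 or more Upk3a UMIs held 6 to 16 of them. None of these 7 held Spink5 or Wfdc3, 5 held Homer2, 5 Gpx2 and 2 Pnliprp1, and 1 each held Krtap17-1, Plb1 and Ly6g6c. The median was 6 of the 9 genes in the NAPH cells and 3 in the Control cells. Scgb1a1 had a median of 3240 UMIs per 10000 in those 55 NAPH cells and 6032 in the 7 Control cells, and Scgb3a2, another secretoglobin, 528 and 118.

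**Figure D5:**
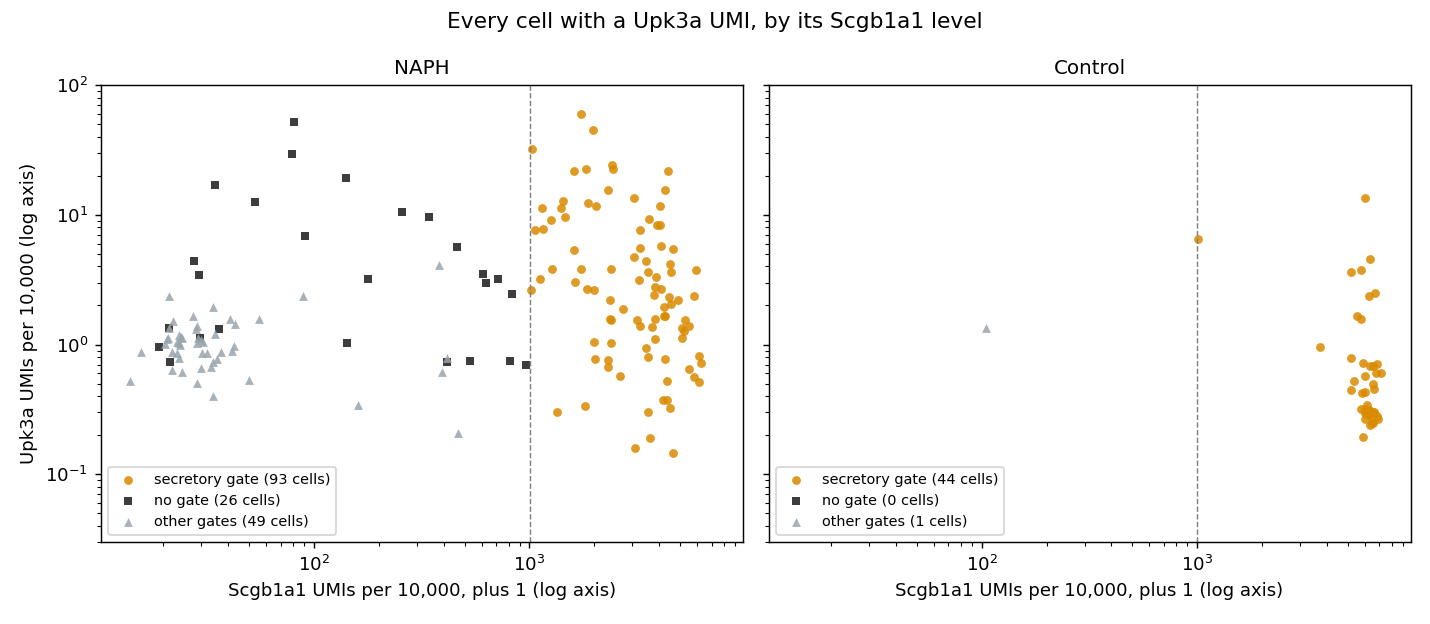
Every cell with a Upk3a UMI, by Scgb1a1 (horizontal, plus 1) and Upk3a (vertical), both in UMIs per 10000 on log axes, for NAPH (left) and Control (right). Circles are secretory cells, squares cells of no gate and triangles cells of other gates only, and the dashed line is the secretory threshold. NAPH cells with Upk3a run on both sides of the threshold, with 26 cells in no gate, while 44 of 45 Control cells lie above it.

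Cyp2f2, which is known to be low in variant club cells, was set beside Upk3a. Cyp2f2 was 3141 CPM in NAPH secretory cells with Upk3a and 3266 CPM in those without, and 4950 and 5851 CPM in Control. It was thus lower with Upk3a in both libraries, but by less than 2 times. These values cannot decide the label. NAPH secretory cells with and without Upk3a were both below Control in Cyp2f2, and 28 of the 44 Control cells with Upk3a had a single Upk3a UMI. The genes are therefore described by name here and no cell is called a variant club cell. Across the gate Cyp2f2 was 3199 CPM in NAPH and 5795 CPM in Control, a relative ratio of 0.361. Scgb1a1 was 338199 CPM in NAPH cells with Upk3a and 364248 CPM in those without. Scgb3a2 was 46064 CPM in NAPH cells with Upk3a and 33941 CPM in those without, while in Control it was 13639 and 15030 CPM.

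Several mucus genes were lower in cells with Upk3a in both libraries. Of 11 goblet genes, 7 were at least 2 times lower in NAPH secretory cells with Upk3a than in those without, where 4.89% of 9772 tested genes were, and 0 were higher. The gel-forming mucin Muc5ac was 7.06 CPM with Upk3a and 134 CPM without in NAPH, the trefoil peptide Tff2 35.3 and 783 CPM, and Muc5b 238 and 790 CPM. In Control 7 of 11 were also lower, where 6.52% of 11454 tested genes were. There Scgb3a1 was 212 CPM with Upk3a and 9811 CPM without, and Bpifb1 9.96 and 851 CPM. Of the 93 NAPH secretory cells with Upk3a 30 were in the goblet-like gate (32.3%), close to 37 of the 104 without (35.6%). In Control 0 of the 44 with Upk3a and 139 of the 713 without were. Cells with Upk3a were somewhat deeper, with medians of 26634 and 19319.5 UMIs in NAPH, and the part of depth in these differences was not tested.

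On the higher side, 4.24% of tested genes in NAPH and 5.23% in Control were at least 2 times higher in cells with Upk3a. The histone gene Hist1h2ap was 119 CPM with Upk3a and 23.5 CPM without, and the secreted airway protein Bpifa1 3251 and 1286 CPM. In Control Bpifa1 had the opposite direction, with 57.5 CPM with Upk3a and 2100 CPM without. The Kazal inhibitor Spink1 had 40 UMIs with Upk3a and 3 without in NAPH. The mesothelin gene Msln, itself 40.8 times higher in NAPH than Control secretory cells, was 251 CPM with Upk3a and 130 CPM without, a relative ratio of 1.86. The keratin gene Krt15 was higher with Upk3a in both libraries, at 22.8 CPM with and 4.32 CPM without in NAPH, and 54.4 and 6.96 CPM in Control. Other uroplakins had few UMIs. Upk1b had 27 with Upk3a and 10 without in NAPH (relative ratio 2.25, 1.06 to 5.21), and Upk1a 22 and 8 (2.29, 0.983 to 5.95).

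NAPH secretory cells with 3 or more of the genes were also compared with the 59 that held 2 or fewer. The planned contrast with cells that held none rested on 4 cells with a median of 4230.5 UMIs and is not described further. Of 11 goblet genes 9 were at least 2 times lower in cells with 3 or more, where 8.20% of 9764 tested genes were. Muc5ac was 8.06 CPM with 3 or more and 299 CPM with 2 or fewer, Tff2 118 and 1445 CPM, and Agr2, a chaperone of mucin folding, 103 and 725 CPM. The tubulin and chromatin genes Stmn1 (158 and 26.8 CPM), Hmgb2 (150 and 25.7 CPM) and Tubb5 (200 and 66.9 CPM) were higher in cells with 3 or more, as was the small heat shock gene Cryab (143 and 43.5 CPM), where 8.37% of tested genes were at least 2 times higher. The medians of 26553 and 13495 UMIs show that the cells with 3 or more were deeper, and the part of depth was not tested.

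The genes whose level went most closely with the summed level of the set across the 197 NAPH secretory cells were Ctsc (Pearson r 0.56), Cryab (0.55), Tmsb4x (0.54) and Ctsh (0.49), of 2857 genes ranked on log2 UMIs per 10000. Ctsc and Ctsh code for lysosomal cathepsins and Tmsb4x for an actin-binding thymosin. In the 757 Control cells the same r was 0.12 for Ctsc, 0.24 for Cryab, 0.28 for Tmsb4x and 0.28 for Ctsh. At the other end were Muc5b (-0.40), Cp (-0.35) and Scgb3a1 (-0.34). The summed level had r of 0.16 with log2 depth in NAPH and 0.07 in Control, and all these points are cells of 1 library.

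Upk3a and its companions did not end at the secretory threshold. Among NAPH cells of no other gate, 16 of 27 with Scgb1a1 from 1000 to 2000 UMIs per 10000 held Upk3a (530 UMIs), and 7 of 14 with Scgb1a1 from 500 to 1000 held it (15 UMIs). Control had 3 cells in the upper range, of which 1 held Upk3a with 8 UMIs, and 0 in the lower. Of the 176 NAPH cells in no gate, 26 held 323 Upk3a UMIs, a level of 192 CPM, against 0 of 27 Control cells, for which 3 counts allow up to 11.1% of cells with a UMI. Of the cells in no gate, 50 NAPH and 0 Control cells held 3 or more of the genes, and 1 NAPH cell held all 9. In 35 ungated NAPH cells with Scgb3a2 of at least 100 per 10000 there were 237 Upk3a UMIs, 154 of Spink5, 82 of Wfdc3 and 78 of Pnliprp1, and 29 of the 35 cells held 3 or more of the genes. No ungated Control cell reached that Scgb3a2 level. Ungated cells with neuroendocrine genes (20 NAPH and 6 Control cells) or basal genes (24 and 9 cells) held no Upk3a, Spink5, Wfdc3 or Pnliprp1 UMI. Median depths were 6060 and 5686.5 UMIs in the former and 7468 and 5569 in the latter. With so few cells these zeros do not establish absence. Homer2 was in 12 of the 20 NAPH and 4 of the 6 Control neuroendocrine-gene cells, and Gpx2 in 17 of the 24 NAPH and 2 of the 9 Control basal-gene cells. A single Control cell with neuroendocrine genes held 71 of the 359 Ly6g6c UMIs of its library.

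NAPH cells with Upk3a outside the gates were set against those in the secretory gate. The median gene was 0.80 higher in the ungated cells on the log2 scale. Scgb1a1 was 25088 CPM in ungated and 338199 CPM in secretory cells with Upk3a, and Scgb3a1 936 and 22541 CPM. Scgb3a2 (36682 and 46064 CPM) and Cyp2f2 (3194 and 3141 CPM) differed less in CPM, but relative to the median gene they were 0.457 and 0.584 times as high in the ungated cells. The Scgb1a1 difference is set by the secretory gate. The Scgb3a1 difference is in part set by the goblet-like gate, which ungated cells fail by definition and 30 of the 93 secretory cells with Upk3a pass. The squamous and hillock-type keratin gene Krt4 was 113 CPM in ungated and 8.72 CPM in secretory cells with Upk3a, the uroplakin Upk1b 118 and 11.2 CPM, the water channel Aqp3 125 and 13.7 CPM, and the chemokine Ccl20 458 and 29.9 CPM. Of 9003 tested genes 7.20% were at least 2 times higher in the ungated cells and 9.64% at least 2 times lower.

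Relatives of the 9 genes did not all follow them between NAPH and Control secretory cells. Besides Upk3a, 1 of the 4 other uroplakins with enough UMIs was at least 2 times higher in NAPH, Upk1b with 37 NAPH and 29 Control UMIs (relative ratio 3.87, 2.32 to 6.52). Upk2 was lower, with 24 NAPH and 168 Control UMIs (0.433, 0.270 to 0.667). The Kazal inhibitor Spink1 was 4.21 times higher and the WAP-domain inhibitor Slpi 12.2 times higher in NAPH. Of the 3 Homer genes only Homer2 passed a ratio of 2, and of 6 glutathione peroxidases only Gpx7. Of 28 NRF2 targets 2 were higher and 5 lower, and of 33 xenobiotic metabolism genes 1 was higher and 14, among them Cyp2f2 and Cyp4b1, were lower, where 7.25% of all tested genes were higher and 6.43% lower. Hillock genes, known from squamous patches of the airway, were higher in 5 of 8 cases, Krt4 with 21 NAPH and 4 Control UMIs, but Krt13 was not among the 5. This was not particular to hillock genes. Of 11 goblet genes 7 were higher and 1 lower, and 6 of 10 AT2 genes and 2 of 3 basal genes were higher. Of 10 ciliated genes 0 were higher and 5 lower.

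Counting of overlapping genes on the opposite strand touches 4 of the 9 genes, since the sources used here do not give the strand setting. Gpx2 overlaps Fntb, which had 18 NAPH and 59 Control secretory UMIs, and Ly6g6c overlaps G6b, which had 3 and 8. Plb1 and Homer2 overlap predicted genes only. On GRCm38 Upk3a spans chr15:85017141-85022547, Wfdc3 chr2:164731180-164745931, Krtap17-1 chr11:99993234-99993994, Plb1 chr5:32232708-32366520, Pnliprp1 chr19:58728887-58744169, Homer2 chr7:81600481-81707527, Ly6g6c chr17:35065388-35070050 and Gpx2 chr12:76792333-76795554, by GENCODE vM21.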

How the data were processed

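The authors deposited raw UMI counts per gene and barcode, made with Cell Ranger on mm10 per the submitters' processing notes. The sources used here do not give its version, settings or cell-calling rule. Kept barcodes had at least 500 genes, at least 1000 UMIs and at most 20% mitochondrial UMIs, which removed 4 in NAPH and 0 in Control. Scrublet (scanpy 1.11.5, Python 3.11.15) called 0.081% and 0.243% of cells, below a set minimum of 0.5%, so its highest-scoring cells were removed at 0.8% per 1000 barcodes, 109 in NAPH and 87 in Control. UMIs were summed per gate and library. Ratios have exact conditional Poisson intervals, shares exact binomial ones, and the limit of a count of 0 is 3 counts. Ratios were made for genes with at least 10 UMIs over both groups, called tested here. Of rows sharing a symbol, 67 were duplicates. Ratios were tried on simulated counts with known folds. edgeR 4.0.16 (R 4.3.3) gave TMM factors, with no model fit. Named are the 9 genes, the 10 highest and lowest by ratio or 10 and 5 by likeness, and up to 4 per list, not all printed. The members, gates and lists were chosen with earlier results of these data known. Of 28692 gene IDs, 28416 were found in GENCODE vM21, and 4 list symbols were not in the matrix.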

Additional observations from a re-analysis of the deposited data

Results flagged for a closer look

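Relative to the median gene, Spink5 and Plb1 differed between NAPH and Control in opposite directions in different gates. The differences between gates were not tested. The relative ratio of Spink5 was 42.2 in secretory, 2.73 in goblet-like and 0.706 in AT2 cells. That of Plb1 was 2.60 in secretory, 3.54 in goblet-like, 5.34 in ciliated and 0.739 in AT2 cells. On plain CPM the Plb1 ratio in AT2 cells was 0.789 (0.598 to 1.04), an interval that includes no difference. Upk3a was also found outside the gates, at 192 CPM in 26 of 176 NAPH cells that passed none, against 0 of 27 Control cells.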

How the results depend on the processing

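The share of NAPH secretory cells with 3 or more genes (70.1%) was 77.7% in cells of 1 gate only, 18.3% after thinning to 3000 UMIs, 46.7% with a gene counted from 2 UMIs, 84.8% for at least 2 genes and 50.3% for at least 4. In Control (31.97%) these were 36.5%, 1.06%, 6.47%, 65.0% and 13.3%, and 36.1% without goblet-like cells. After thinning, Spink5 was in 23.1% of NAPH cells with Upk3a (12 of 52) and 0.0% of Control cells with Upk3a (0 of 10). The median log2 ratio of the 9 genes (1.49) was 2.10 on plain CPM. Genes at least 2 times apart between NAPH and Control secretory cells on plain CPM numbered 2891 (2584 higher, 307 lower), and 1661 without Scgb1a1 (776 higher, 885 lower), 1645 with TMM (811 and 834) and 1647 relative to the median gene (873 and 774). For NAPH secretory cells with 3 or more of the genes against the 4 with none, the number was 2179 of 9225 tested genes. After thinning it was 916 of only 3074 tested genes, so the 2 numbers are not on the same base. For cells with Upk3a against those without it was 899 of 9764. Over 10 alternatives Spink5 ranged from 33.0 to 106 and Ly6g6c from 0.788 to 1.40, and no gene with a ratio of 2 or more fell below 2. Leaving out goblet-like cells, joining ungated cells with Scgb3a2, the plain ratio beside the relative one and Upk3a against none were chosen after seeing the data. The causes of these changes were not tested. No paired analysis was possible because each group has 1 library, and for the same reason no replicate could be left out.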
